A study of Mus musculus with 12 samples.

Results

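The macrophage identity genes and the CSF1 axis were represented by 9 genes: Csf1, Csf1r, Spi1, Cebpa, Cebpb, Maf, Adgre1, Adgre4 and Itgam. The genes were chosen by name for their known roles, with no threshold on measured values but with earlier results of these data known, from 48795 genes listed by Ensembl identifier, and all 9 were matched by symbol and passed the filter on low counts that left 11228 genes. RNA was sequenced from mouse bone marrow-derived macrophages (BMDMs), which are grown from marrow cells in M-CSF, the protein product of Csf1. The study's methods name M-CSF for this growth and do not list it in the medium of the experiments. WT cells were labelled C57BL/6 and Acod1-/- cells C57BL/6NJ-Acod1em1(IMPC)J/J, which lack Acod1, the mitochondrial enzyme that makes itaconate. Cells of each genotype received vehicle, particulate matter (PM, 20 μg/cm2 for 24 hours) or 4-octyl itaconate (OI, a cell-permeable form of itaconate) at 0.25 mM from 2 hours before the same PM exposure, and no group had OI without PM. Each of the 6 groups held 2 libraries, and the donors were adult male mice per the study's methods. The labels do not say whether the 2 libraries came from separate animals or cultures, so p-values measure spread between libraries only. In the main fit this spread was estimated for each gene over all 6 groups together, not from the compared groups alone. The question was whether OI, PM or loss of Acod1 changed the genes by which macrophages are recognised.

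CSF1 binds its receptor tyrosine kinase CSF1R on monocytes and macrophages and keeps them alive, dividing and differentiated. PU.1, the product of Spi1, opens the enhancers of the lineage together with C/EBP factors, and it activates Csf1r and Itgam. MAF restrains self-renewal and drives programmes of resident and anti-inflammatory macrophages, while F4/80 (Adgre1), the related receptor encoded by Adgre4 and CD11b (Itgam) are surface proteins of these cells, and F4/80 and CD11b are used to sort them.

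The libraries held 33616577 to 36817898 counts. The cells carried macrophage markers in all groups: all 8 genes of a list of Cd68, Adgre1, Itgam, Csf1r, Fcgr1, Mertk, Lyz2 and Cd14 passed the filter, with a summed level of 14280 to 27340 CPM, a level scaled to the size of the library. Cd3e and Calcr had no count in any library, and Ly6g had 1 count in all 12. Other members of the same lists were present. By group mean, the osteoclast marker Acp5 read 34.9 to 161.9 CPM and the neutrophil marker S100a8 3.69 to 44.6. The T cell marker Cd4 read 0.351 to 1.19. The empty genes thus do not show that the cultures lacked these cell types. The libraries of the WT PM and WT OI+PM groups stood apart from the rest. The variance between their replicates was 27.3 and 58.5 times that of pure counting (chi-square per degree of freedom), against 2.61 to 8.32 in the other groups. The replicate differences followed exonic length across genes (Spearman 0.596 and 0.607). In the other groups this correlation was 0.277 in WT vehicle, -0.077 in Acod1-/- vehicle, -0.356 in Acod1-/- PM and 0.287 in Acod1-/- OI+PM. Since the main fit shared its spread over all groups, its SEs and p-values do not follow these differences in replicate spread. For OI+PM against PM, 4926 genes passed its test in WT cells, and 1939 with the compared groups fitted alone. In Acod1-/- cells the numbers were 3881 and 5789. Acod1 itself read 1.84 and 2.49 normalised CPM in WT vehicle, 181 and 170.3 in WT PM, and 32.6 and 57.1 in WT OI+PM. In Acod1-/- cells it read 1.26 and 1.22 with vehicle, 108 and 94.1 with PM, and 24.4 and 26.8 with OI+PM. Acod1 was lower in Acod1-/- than in WT libraries under PM by a log2 difference that missed the threshold (-0.80, SE 0.20, edgeR adjusted p = 0.0807) and passed it in 7 of 21 alternatives, among them DESeq2 and the length correction. Since these are counts over the whole gene and the sources used here do not give the deleted part, the level does not check the label.

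After OI, the ligand Csf1, its receptor Csf1r and the F4/80 gene Adgre1 fell, Maf fell more than 3-fold, and Adgre4 fell from 178 to 455 counts a library to 3 or fewer. Cebpa rose in both genotypes. Itgam did not pass the test in either genotype. Spi1 passed in Acod1-/- cells, where the call was lost without any 1 of the 4 compared libraries, and not in WT cells. In edgeR (quasi-likelihood F test, p adjusted over all genes tested by Benjamini-Hochberg), 7 of the 9 genes changed in OI+PM against PM in WT cells (2 rose and 5 fell), where 43.9% of all genes were called, 21.3% higher and 22.6% lower. Of the 9 genes 7 changed in Acod1-/- cells (1 rose and 6 fell), where 34.6% of all genes were called, 13.9% higher and 20.6% lower. The median log2 change of the 9 genes was -0.30 in WT and -0.49 in Acod1-/- cells, and that of all genes tested was 0.02 and -0.0006. With total count scaling the calls over all genes leaned lower (1413 higher and 3317 lower in WT, 1137 and 2690 in Acod1-/- cells, against 2391 and 2535, and 1564 and 2317). With the further demand of a 2-fold change, 2 genes remained in WT (Maf and Adgre4) and 3 in Acod1-/- cells (Csf1, Maf and Adgre4), against 10.8% and 9.83% of all genes.

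PM raised the ligand, its receptor, PU.1, C/EBPβ, CD11b and Adgre4 at the RNA level and lowered Maf. Against vehicle, 7 of the 9 genes changed in each genotype (6 rose, and Maf fell), where 24.8% of all genes were called in WT cells (12.6% higher and 12.2% lower) and 23.9% in Acod1-/- cells (12% higher and 11.9% lower). Csf1, Csf1r, Spi1, Cebpb, Adgre4 and Itgam rose, and Cebpa and Adgre1 did not pass. The median log2 change of the 9 genes was 0.44 in WT and 0.50 in Acod1-/- cells, against 0.01 and -0.0002 for all genes. With total count scaling the calls over all genes were 1088 higher and 2027 lower in WT, and 1085 and 1841 in Acod1-/- cells, against 1414 and 1368, and 1344 and 1340. With a 2-fold change as well, 3 genes remained in WT (Csf1, Cebpb and Adgre4) and 2 in Acod1-/- cells (Cebpb and Adgre4), against 4.15% and 4.5% of all genes. The comparisons of PM with vehicle and of OI+PM with PM share the PM libraries, so a PM library that reads high raises the first and lowers the second. RNA was taken from whole cultures, in which fewer cells of a type and less RNA per cell cannot be told apart. Markers of other cells moved with PM too, and their part in these results was not tested. The sum of 6 osteoclast markers was 86.2 to 87.1 CPM with vehicle and 137 to 159 with PM in WT cells, and 129.9 to 131.9 and 221 to 230.6 in Acod1-/- cells (of 4 that passed the filter 2 were called higher in each genotype, and 1 lower in Acod1-/- cells). Ocstamp passed the filter through Acod1-/- vehicle alone (mean 1.74 CPM, and 0.234 with PM), so a fall of Ocstamp with PM is not counted as a result. The sum of 8 neutrophil and precursor markers was 5.35 to 6.20 with vehicle and 12.2 to 18.3 with PM in WT cells, and 5.80 to 6.26 and 17.3 to 18.5 in Acod1-/- cells (both of the 2 that passed were called higher). Of the 2, S100a9 had a mean above 1.5 CPM in the PM groups alone (1.71 in WT and 3.27 in Acod1-/- cells, against 1.015 and 1.32 with vehicle). The filter so favoured its call, which is not counted as a result. The sum of 4 monocyte markers was 13.95 to 14.00 with vehicle and 7.21 to 8.66 with PM in WT cells, and 10.4 to 11.8 and 5.72 to 5.79 in Acod1-/- cells (of 2 that passed 1 was called lower in WT and 2 in Acod1-/- cells). The 8 macrophage markers summed to 14280 to 14600 CPM with vehicle.

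**Figure D1:**
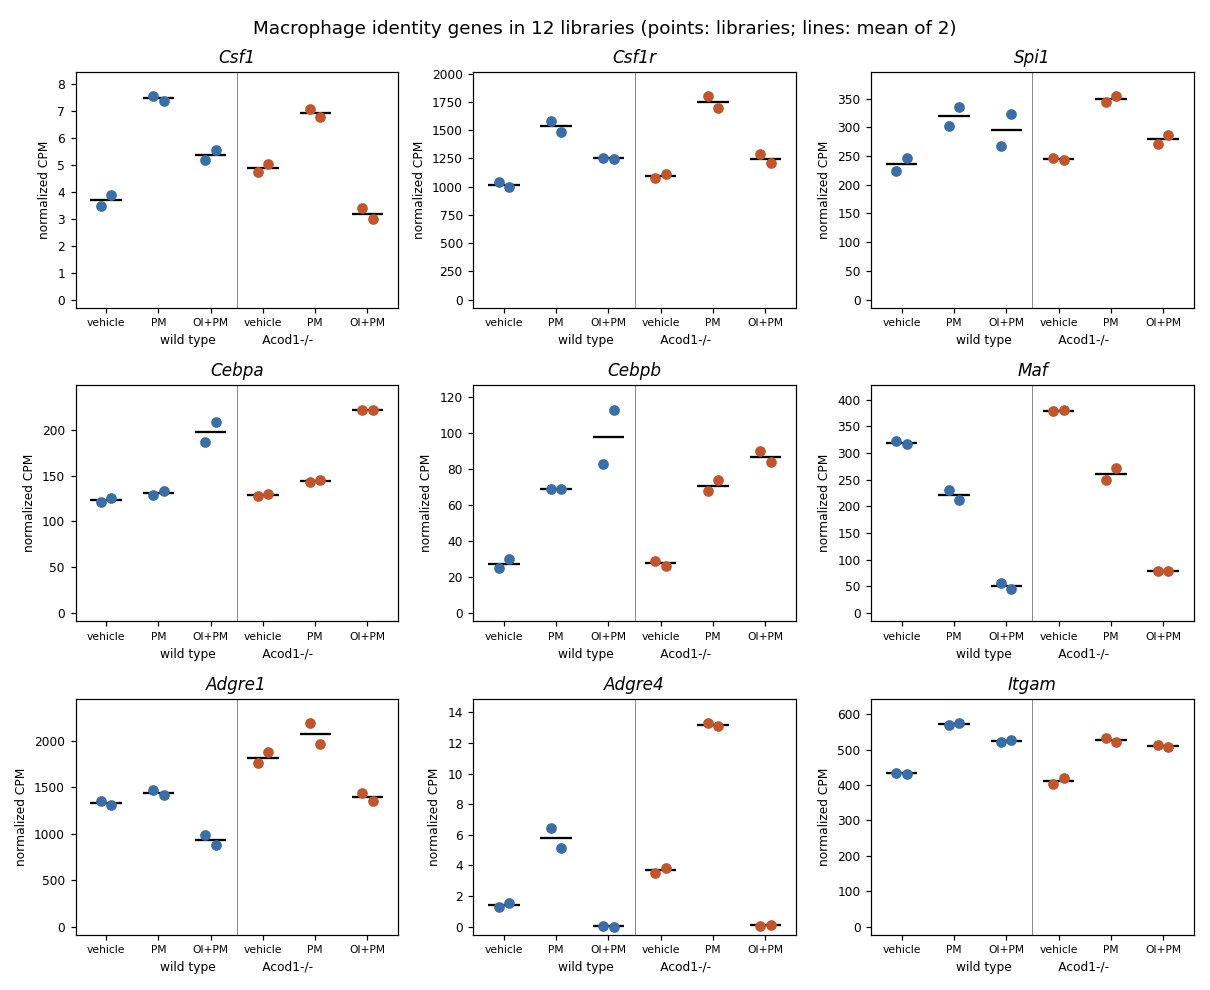
Normalised CPM (TMM-scaled, linear axes) of the 9 genes in the 12 libraries by genotype and treatment. Points are single libraries and lines the mean of 2. Adgre4 lies at or near 0 in the 4 OI+PM libraries, Maf is lowest there and Cebpa highest, while Itgam stays between 404 and 574 in every library.

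Levels of different genes were compared per length of exon, as normalised CPM per kilobase of exon (RPKM). In WT vehicle cells Adgre1 was the most abundant (411 ± 8.22, SD, n = 2), followed by Csf1r (176 ± 5.44). Spi1 (87.4 ± 5.87) and Itgam (86.2 ± 0.17) did not differ beyond their spread. Cebpa (47.0 ± 1.17), Maf (38.8 ± 0.49) and Cebpb (18.3 ± 2.34) came next, all of them transcription factors. Parts of this order depend on the length used. Per length of the longest transcript, Spi1 (115.9) lay above Itgam (92.5), and Maf (50.2) above Cebpa (47.1). Csf1 (0.70 ± 0.06) and Adgre4 (0.41 ± 0.05) were the lowest, so the receptor exceeded its ligand 253-fold on the RPKM scale (propagated SD 21.8). The macrophages thus held little ligand RNA of their own next to receptor RNA. In WT cells Maf was already below Cebpb in RPKM with PM (26.8 ± 1.60 against 46.0 ± 0.13), and with OI+PM the values were 6.08 ± 0.97 and 65.1 ± 14.3.

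Csf1 encodes M-CSF, the ligand. It lies on chr3:107741048-107760469 (minus strand, GRCm38; identifier ENSMUSG00000014599.10). WT libraries read 3.47 and 3.89 normalised CPM with vehicle, 7.54 and 7.38 with PM, and 5.18 and 5.55 with OI+PM. Acod1-/- libraries read 4.73 and 5.03 with vehicle, 7.06 and 6.79 with PM, and 3.40 and 2.99 with OI+PM. No 2 groups overlapped, and the Acod1-/- OI+PM libraries were the lowest of the 12. Behind these values stand 97 to 264 counts a library. PM raised Csf1 in WT cells by 1.02 on the log2 scale (SE 0.11, edgeR adjusted p = 0.0001) and in Acod1-/- cells by 0.50 (SE 0.10, adjusted p = 0.00617). OI then lowered it by a log2 change of -0.48 in WT (SE 0.10, adjusted p = 0.00442) and -1.11 in Acod1-/- cells (SE 0.11, adjusted p = 2.63e-05). Against vehicle, OI+PM left Csf1 higher in WT cells (log2 change 0.54, SE 0.11, adjusted p = 0.00195) and lower in Acod1-/- cells (-0.61, SE 0.11, adjusted p = 0.00146). The WT fall after OI was not called when the 2 compared groups were fitted alone (adjusted p = 0.0831), and the Acod1-/- rise after PM was not called without Acod1-/- vehicle replicate 1 or without Acod1-/- PM replicate 1 (highest adjusted p = 0.0647).

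Csf1r encodes the receptor (ENSMUSG00000024621.15, chr18:61100598-61132149, plus strand), and its exons overlap those of Hmgxb3 on the other strand. The sources used here do not say whether counting used strand, so reads of such overlapping genes may be shared, here and for the genes below. Its normalised CPM was 1040.2 and 996 in WT vehicle, 1580.3 and 1485 in WT PM, and 1253 and 1245 in WT OI+PM. For Acod1-/- it was 1074 and 1113 with vehicle, 1799 and 1698 with PM, and 1285 and 1211 with OI+PM. All 4 PM libraries lay above all others, and the OI+PM libraries of the 2 genotypes overlapped. PM raised Csf1r by 0.59 (SE 0.06, adjusted p = 7.8e-05) in WT and 0.68 (SE 0.06, adjusted p = 2.56e-05) in Acod1-/- cells on the log2 scale, and OI took back -0.30 (SE 0.06, adjusted p = 0.00276) and -0.49 (SE 0.06, adjusted p = 0.000113) in edgeR. The WT fall was not called with the compared groups fitted alone (adjusted p = 0.0926). Its rise over vehicle under OI+PM, 0.30 in WT and 0.19 in Acod1-/- cells, was lost with total count scaling, and in Acod1-/- cells also without vehicle replicate 1, vehicle replicate 2 or OI+PM replicate 1.

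Spi1 encodes PU.1, the factor that sets the myeloid lineage (ENSMUSG00000002111.8, chr2:91082390-91115756, plus strand, no overlapping exon). Normalised CPM was 224 and 247 in WT vehicle, 303 and 335 in WT PM, and 267 and 323 in WT OI+PM. It was 247 and 243 in Acod1-/- vehicle, 344 and 354 in Acod1-/- PM, and 271 and 288 in Acod1-/- OI+PM. The WT PM and OI+PM libraries overlapped and the Acod1-/- ones did not. PM raised Spi1 by 0.44 in WT (SE 0.09, adjusted p = 0.00826) and 0.51 in Acod1-/- cells (SE 0.09, adjusted p = 0.00318) on the log2 scale, the WT call being lost without vehicle replicate 1 or PM replicate 2. The log2 change with OI was -0.11 in WT (95% interval -0.32 to 0.10, edgeR adjusted p = 0.353) and -0.32 in Acod1-/- cells (SE 0.09, adjusted p = 0.0221). Without WT OI+PM replicate 2 the WT value was -0.26 and was called (adjusted p = 0.0267), and without replicate 1 it was 0.0189. It was also called with total count scaling and with a correction for exonic length.

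Cebpa and Cebpb encode the C/EBP factors that work beside PU.1, C/EBPα in the entry to the myeloid lineage and C/EBPβ in inflammatory and alternative activation. Cebpa (ENSMUSG00000034957.10, chr7:35119293-35121928, plus strand, overlapping Gm45091 on the other strand) read 122 and 126 normalised CPM in WT vehicle, 129 and 133 in WT PM, and 187 and 208 in WT OI+PM. Acod1-/- cells read 127 and 129.6 with vehicle, 143 and 145 with PM, and 222 and 222 with OI+PM. The 4 OI+PM libraries were above the other 8. OI raised Cebpa by 0.59 in WT (SE 0.06, adjusted p = 4.35e-05) and 0.62 in Acod1-/- cells (SE 0.06, adjusted p = 3.35e-05) on the log2 scale in edgeR. The log2 change with PM was 0.08 in WT (95% interval -0.06 to 0.22) and 0.17 in Acod1-/- cells (0.02 to 0.31, adjusted p = 0.0863), the WT value turning below 0 with total count scaling and with the length correction. The Acod1-/- rise was called with the 2 compared groups fitted alone and without either WT OI+PM library.

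Cebpb (ENSMUSG00000056501.3, chr2:167688915-167690418, plus strand, overlapping Tmem189 on the other strand) has 1504 bases of exon, which is its whole span. It read 25.01 and 29.99 normalised CPM in WT vehicle, 69.3 and 69.0 in WT PM, and 82.7 and 113 in WT OI+PM. It read 29.1 and 26.1 in Acod1-/- vehicle, 68.0 and 73.9 in Acod1-/- PM, and 90.0 and 83.8 in Acod1-/- OI+PM. Every PM and OI+PM library exceeded every vehicle library, and the OI+PM libraries of the 2 genotypes overlapped. PM raised Cebpb by 1.33 in WT (SE 0.14, adjusted p = 0.000121) and 1.36 in Acod1-/- cells (SE 0.14, adjusted p = 8.81e-05) on the log2 scale. OI added 0.50 in WT cells (SE 0.14, edgeR adjusted p = 0.0149). In Acod1-/- cells the log2 difference was 0.29 (95% interval -0.02 to 0.60, adjusted p = 0.135), which was called with the 2 compared groups fitted alone and without either WT OI+PM library. The WT call rests on the second OI+PM library: without it the log2 change was 0.26 and was not called (adjusted p = 0.0716), and the call was also lost without either WT PM library and with the compared groups fitted alone.

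Maf encodes the large MAF factor c-Maf (ENSMUSG00000055435.6, chr8:115682942-115707794, minus strand, overlapping Gm15655 on the other strand). Its normalised CPM was 322 and 317 in WT vehicle, 230.4 and 211.8 in WT PM, and 55.8 and 44.5 in WT OI+PM. In Acod1-/- cells it was 378 and 381 with vehicle, 249 and 272 with PM, and 79.7 and 78.4 with OI+PM. No 2 groups overlapped, and within each genotype the order was vehicle, PM, OI+PM. PM lowered Maf by a log2 change of -0.53 in WT (SE 0.10, adjusted p = 0.00319) and -0.54 in Acod1-/- cells (SE 0.09, adjusted p = 0.00241). OI lowered it further, by -2.14 in WT (SE 0.10, adjusted p = 9.85e-08) and -1.72 in Acod1-/- cells (SE 0.10, adjusted p = 4.17e-07). The level so changed by -77.3% and -69.65%. Both falls were called in all 22 alternatives run.

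Adgre1 encodes F4/80, the adhesion receptor by which mouse macrophages are most often sorted (ENSMUSG00000004730.14, chr17:57358691-57483527, plus strand). It read 1349 and 1311 normalised CPM in WT vehicle, 1475 and 1415 in WT PM, and 984 and 879.5 in WT OI+PM. Acod1-/- libraries read 1767 and 1879.5 with vehicle, 2193 and 1967 with PM, and 1443 and 1357 with OI+PM. Within each genotype the OI+PM libraries were the lowest, and under each treatment the Acod1-/- libraries exceeded the WT libraries. OI lowered Adgre1 by a log2 change of -0.63 in WT (SE 0.08, adjusted p = 8.98e-05) and -0.57 in Acod1-/- cells (SE 0.08, adjusted p = 0.000204) in edgeR. The log2 change with PM was 0.12 in WT (95% interval -0.05 to 0.29) and 0.19 in Acod1-/- cells (0.02 to 0.36), neither of them called. The Acod1-/- value was called with the 2 compared groups fitted alone and without either WT OI+PM library.

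Adgre4 encodes a relative of F4/80 in the EGF-TM7 family (ENSMUSG00000032915.6, chr17:55749984-55853662, plus strand, 1.51 Mb from Adgre1 on the same chromosome). Its raw counts were 48 and 61 in WT vehicle, 226 and 178 in WT PM, and 1 and 0 in WT OI+PM. In Acod1-/- cells they were 128 and 138 with vehicle, 452 and 455 with PM, and 2 and 3 with OI+PM. The 4 OI+PM libraries were the lowest of the 12 in either genotype, below the vehicle level as well as the PM level. PM raised Adgre4 by 2.03 in WT (SE 0.17, adjusted p = 2.38e-05) and 1.85 in Acod1-/- cells (SE 0.14, adjusted p = 1.05e-05) on the log2 scale. With counts pooled by group and scaled by library size, the PM level was 365 times the OI+PM level in WT cells (95% exact interval 65.1 to 14448) and 173 times in Acod1-/- cells (74.0 to 535). Against OI+PM the vehicle level was 89.4 times higher in WT (15.7 to 3564) and 48.15 times in Acod1-/- cells (20.4 to 149.5), and all 4 intervals cover counting error only. Among the 11228 genes tested the fitted log2 change of Adgre4 after OI ranked 2 from the lowest in WT (adjusted p = 9.83e-08) and 1 in Acod1-/- cells (adjusted p = 1.89e-08), although the size of a fitted change against so few counts depends on the prior count.

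Itgam encodes CD11b, the alpha chain of the complement receptor Mac-1 (ENSMUSG00000030786.18, chr7:128062640-128118491, plus strand, overlapping Gm49368 on the same strand). It read 434 and 432 normalised CPM in WT vehicle, 569 and 574 in WT PM, and 520.2 and 526 in WT OI+PM. It read 404 and 419 in Acod1-/- vehicle, 533 and 521 in Acod1-/- PM, and 514 and 508 in Acod1-/- OI+PM. Every PM and OI+PM library exceeded every vehicle library. PM raised Itgam by 0.40 in WT (SE 0.05, adjusted p = 0.000248) and 0.36 in Acod1-/- cells (SE 0.05, adjusted p = 0.000473) on the log2 scale. The log2 change with OI was -0.13 in WT (95% interval -0.23 to -0.02, edgeR adjusted p = 0.0549) and -0.05 in Acod1-/- cells (-0.15 to 0.06, adjusted p = 0.512). The WT value passed the threshold in DESeq2, with total count scaling, with a stricter filter and with the length correction.

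**Figure D2:**
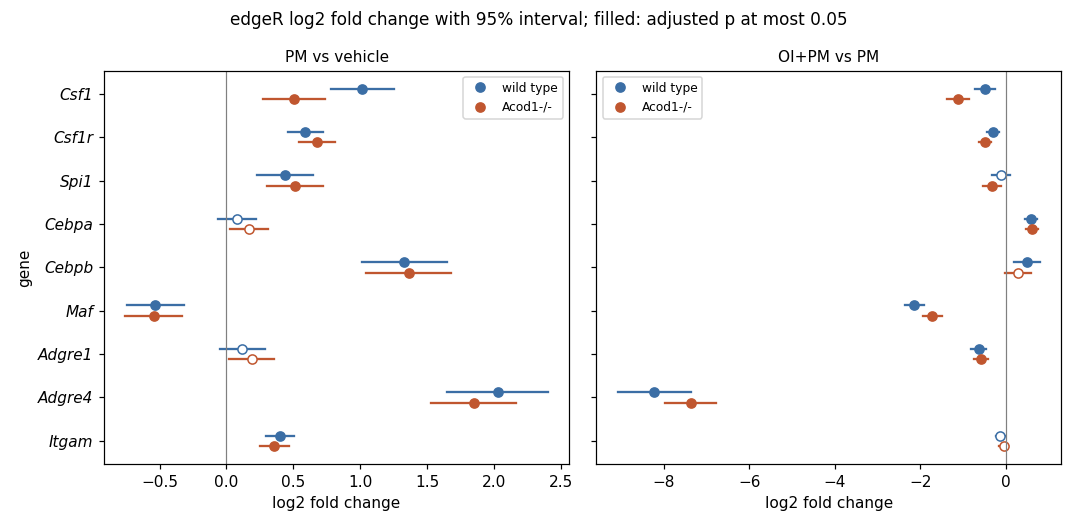
Log2 fold change (x axis) of the 9 genes in edgeR for PM against vehicle and for OI+PM against PM, in WT (blue) and Acod1-/- (orange) cells, with 95% intervals. Filled points have an adjusted p of 0.05 or less. Maf lies left of 0 in both panels, Adgre4 moves from the right to the far left, and Cebpa lies right of 0 after OI; the 2 panels share the PM libraries, and the fitted size for Adgre4 after OI depends on the prior count.

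Against vehicle, OI+PM changed all 9 genes in WT cells (6 rose and 3 fell), where 65.5% of all genes were called (33.6% higher and 31.9% lower). Of the 9 genes 8 changed in Acod1-/- cells (4 rose and 4 fell), where 49.4% were called (22.7% higher and 26.7% lower). Maf, Adgre1 and Adgre4 fell below vehicle in both genotypes, and Cebpa, Cebpb, Csf1r and Itgam rose above it. Maf changed by -2.67 in WT and -2.26 in Acod1-/- cells on the log2 scale, and Cebpb by 1.83 and 1.65. Itgam changed by 0.27 and 0.31. Cebpb, Maf and Adgre4 also passed 2-fold in both genotypes, where 16.1% and 13.1% of all genes did. With total count scaling the median of all genes was -0.20 in this WT comparison and -0.15 in the Acod1-/- one, against 0.02 and -0.0056, and under it the WT rises of Csf1r, Spi1 and Itgam were no longer called. The WT rise of Spi1 was also lost with the 2 groups fitted alone, with the length correction, and without WT vehicle replicate 1 or WT OI+PM replicate 2. The Acod1-/- value of Spi1 (0.19, adjusted p = 0.12) was called with the 2 groups fitted alone and without either WT OI+PM library. Over all genes the calls were 3771 higher and 3579 lower in WT and 2548 and 2999 in Acod1-/- cells, and with total count scaling 2283 and 5108, and 1629 and 4110.

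The promoters of 5 of the 9 genes were found in a RefSeq table (build GRCm38.p6), and the 250 bases before the annotated start were searched on both strands. The letters searched were GGAAGT for the PU.1 core, TTGCNNAA for C/EBP, TGCTGA for the MAF core and TGACNNNGC for the antioxidant response element core. Of 32851 promoter windows of this length, 19.7% held the PU.1 letters, 9.56% the C/EBP letters, 16.1% the MAF core and 10.2% the antioxidant response letters. The windows of Csf1, Cebpa, Cebpb and Itgam held none of them, and that of Adgre4 held 1 match to the C/EBP letters, on the minus strand at -46 to -39 from the start. Of the 5, the windows of Adgre4, Csf1 and Cebpa are shown because these genes gave the deepest fall, a fall of the ligand and a rise after OI. They lie at chr17:55749734-55749983 (plus strand), chr3:107760470-107760719 (minus strand) and chr7:35119043-35119292 (plus strand), are written 5′ to 3′ on the gene's strand, and capitals mark the match.
Adgre4: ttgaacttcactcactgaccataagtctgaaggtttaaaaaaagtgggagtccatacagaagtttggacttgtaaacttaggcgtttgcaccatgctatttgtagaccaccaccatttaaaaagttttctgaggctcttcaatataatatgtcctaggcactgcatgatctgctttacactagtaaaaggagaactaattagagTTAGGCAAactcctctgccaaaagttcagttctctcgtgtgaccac
Csf1: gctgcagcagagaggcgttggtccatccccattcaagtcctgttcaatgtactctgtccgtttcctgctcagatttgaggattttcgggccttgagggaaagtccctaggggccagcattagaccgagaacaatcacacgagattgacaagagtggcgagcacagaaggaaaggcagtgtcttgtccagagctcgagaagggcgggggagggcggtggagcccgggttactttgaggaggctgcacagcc
Cebpa: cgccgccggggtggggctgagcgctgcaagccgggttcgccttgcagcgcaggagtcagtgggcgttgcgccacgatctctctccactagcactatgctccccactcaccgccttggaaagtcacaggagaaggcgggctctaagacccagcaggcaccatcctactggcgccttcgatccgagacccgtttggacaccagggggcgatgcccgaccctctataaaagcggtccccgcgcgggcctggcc
The G and C content of these windows was 39.6% for Adgre4, 56.4% for Csf1 and 66.4% for Cebpa. A match is a string of letters and no evidence of binding, and the other windows say only that these letters are absent there.

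Adgre1 and Adgre4 were higher in Acod1-/- than in WT cells, and Maf was higher and Csf1 lower in Acod1-/- cells with OI+PM. With vehicle 2 of the 9 genes were called, both higher (1.83% of all genes were called, 0.891% higher and 0.935% lower). With PM it was again 2, both higher (2.4% called, 1.1% higher and 1.3% lower). With OI+PM it was 3, of which 2 were higher and 1 lower (6.96% called, 2.51% higher and 4.45% lower; 282 higher and 500 lower, and 412 and 359 with total count scaling). Adgre1 was higher by 0.45 with vehicle (SE 0.08, adjusted p = 0.0144), 0.53 with PM (SE 0.08, adjusted p = 0.006) and 0.59 with OI+PM (SE 0.08, adjusted p = 0.00275) on the log2 scale. Adgre4 was higher by 1.37 with vehicle (SE 0.18, adjusted p = 0.0036) and 1.19 with PM (SE 0.13, adjusted p = 0.00165), and with OI+PM both genotypes had 3 counts or fewer in each library, so no fold is given. Adgre4 was the 1 gene of the 9 past 2-fold with vehicle and with PM, against 0.481% and 0.561% of all genes, and with OI+PM 0 of the 9 were (0.917%). The vehicle call of Adgre1 was lost when any 1 of the 4 compared libraries was left out, and that of Adgre4 without WT replicate 1 or Acod1-/- replicate 2. The PM call of Adgre1 was lost without WT PM replicate 2 or Acod1-/- PM replicate 1. Osteoclast markers differed between the genotypes as well, and their part in these differences was not tested: of 4 that passed the filter, 3 were called higher in Acod1-/- cells with vehicle, 2 with PM and 2 with OI+PM, and their sums did not overlap between genotypes in any treatment. Of the 4, Ocstamp had a mean above 1.5 CPM in Acod1-/- vehicle alone (1.74, and at most 0.366 elsewhere). It passed the filter through that group, so a call of Ocstamp with vehicle is not counted as a result. Of 2 monocyte markers that passed, 1 was called lower in Acod1-/- cells with vehicle and with PM, and of 2 neutrophil markers 1 was called higher with PM. With PM, S100a9 had means of 1.71 CPM in WT and 3.27 in Acod1-/- cells, and S100a8 12.6 and 12.8. S100a9 was above 1.5 CPM on average in the PM groups alone, so a call of it there was favoured by the filter and is not counted as a result. The labels name the WT strain C57BL/6, while the study's methods give both genotypes a C57BL/6NJ background. If the labels are right, loss of Acod1 and strain background cannot be told apart in these differences.

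With OI+PM, Maf was higher in Acod1-/- cells by 0.66 on the log2 scale (SE 0.10, adjusted p = 0.00626) and Csf1 was lower, with a log2 difference of -0.75 (SE 0.11, adjusted p = 0.00724), while with PM the log2 differences were 0.24 (95% interval 0.02 to 0.45) and -0.11 (-0.33 to 0.12). With the 2 groups fitted alone, where 2 of 11228 genes were called against 782, none of these 9 genes was called, and the calls of Maf and Csf1 were also lost without Acod1-/- OI+PM replicate 2, that of Maf also without replicate 1. Csf1r, Spi1, Cebpa, Cebpb and Itgam did not pass the test between genotypes under any of the 3 treatments, with log2 differences from -0.17 (Cebpb with OI+PM) to 0.19 (Csf1r with PM). With vehicle the differences of Csf1 (0.40, adjusted p = 0.139) and Maf (0.25, adjusted p = 0.361) did not pass either. With OI+PM, Cebpa (0.17) was called with total count scaling and at 0.28 with the length correction (adjusted p = 0.00666), and Spi1 and Cebpb were called without WT OI+PM replicate 1. With vehicle, Csf1, Csf1r and Maf were called with the 2 groups fitted alone, where 2316 genes were called against 205, and Maf also with the length correction and without either WT OI+PM library, which with PM left Maf called too.

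Whether OI acted differently in the 2 genotypes was tested by the interaction. No gene of 11228 was called by edgeR (0% called, and 717 or 6.39% at an unadjusted p under 0.05) and 34 were called by DESeq2, none of them among the 9. The length correction called 21, and with the replicate block as well 15, again none of the 9. The difference in the OI effect, Acod1-/- minus WT, was -0.64 on the log2 scale for Csf1 (95% interval -0.98 to -0.30, unadjusted p = 0.00196, adjusted p = 0.407), -0.19 for Csf1r (-0.38 to -0.01, adjusted p = 0.774) and 0.42 for Maf (0.12 to 0.72, adjusted p = 0.702). Without WT OI+PM replicate 1 the interaction called 525 genes, Maf among them (log2 difference 0.59, adjusted p = 0.024). For PM the interaction again called 0 genes in edgeR (0% called, and 273 or 2.43% at an unadjusted p under 0.05) and 3 in DESeq2, none of the 9, with Csf1 at -0.51 (-0.84 to -0.18, adjusted p = 0.9998). For OI+PM over vehicle the difference between genotypes, a test added after the data were seen, called 3 genes of 11228 (0.0267%, and 935 or 8.33% at an unadjusted p under 0.05) and 0 of the 9 in edgeR. It called 51 genes in DESeq2 and 24 with the length correction, Csf1 among the latter. Csf1 came nearest among them, at -1.15 (95% interval -1.504 to -0.7954, adjusted p = 0.0628). A failed test does not show that the genotypes respond alike, and the intervals give what these libraries allow: for Cebpa the difference in the OI effect lay between -0.17 and 0.23, for Itgam between -0.07 and 0.23, and for Adgre1 between -0.18 and 0.30.

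**Figure D3:**
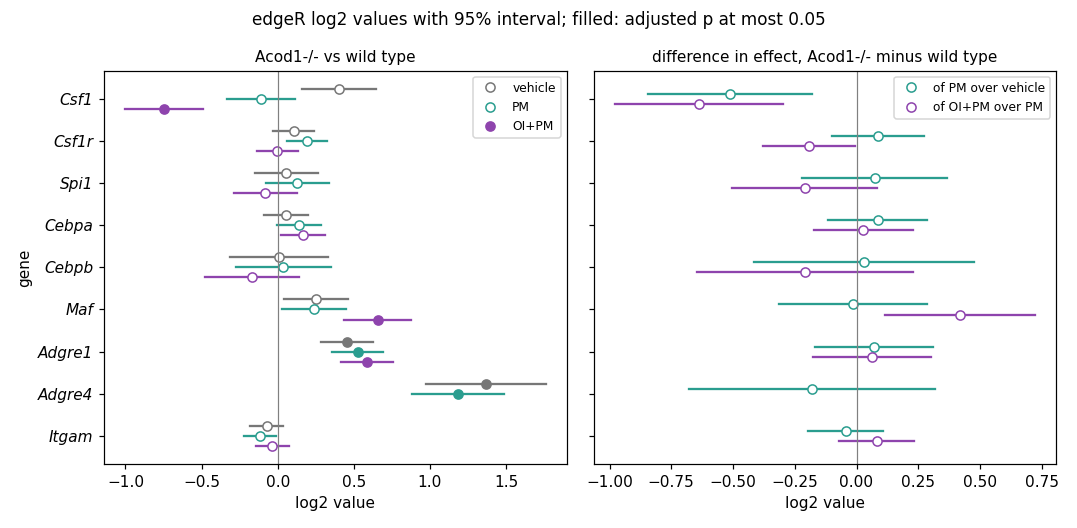
Log2 values (x axis) with 95% intervals from edgeR: at left Acod1-/- against WT under each treatment, at right the difference in the effect of PM and of OI between the genotypes. Filled points have an adjusted p of 0.05 or less; Adgre1 lies right of 0 under all 3 treatments and no point at right is filled. Adgre4 is left out where each OI+PM library had 3 counts or fewer.

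The CSF1R pathway was taken as the other ligand, adaptors, kinases, phosphatases and the protease that sheds the receptor. In OI+PM against PM and in PM against vehicle it moved most at the Src-family kinase gene Fgr. Of 20 genes listed, 19 passed the filter, and Il34, which encodes the other CSF1R ligand, had 3 counts in all 12 libraries together. With OI, 2 rose and 9 fell in WT cells (57.9% called, against 43.9% of all genes; median log2 change -0.22 against 0.02 for all genes) and 8 fell in Acod1-/- cells (42.1% called, against 34.6%; median -0.19). Fgr fell by -2.001 in WT (adjusted p = 5.17e-06) and -2.21 in Acod1-/- cells (adjusted p = 2.93e-06) on the log2 scale. Mapk3, which encodes ERK1, rose by 0.40 and Dok1 by 0.25 in WT cells, and their values in Acod1-/- cells were 0.17 and 0.06, not called. After PM, 4 rose and 2 fell in WT cells, and 4 rose and 1 fell in Acod1-/- cells (31.6% and 26.3% called, against 24.8% and 23.9% of all genes). Fgr rose by 1.84 and 2.66 after PM and Adam17, which sheds CSF1R, by 0.60 and 0.79. Between genotypes, Adam17 was higher in Acod1-/- cells with PM (log2 difference 0.31, adjusted p = 0.0356) and with OI+PM (0.28, adjusted p = 0.0317).

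Among the other colony-stimulating factors, Csf2, Csf3 and Il3 were near 0 (5, 15 and 0 counts over 12 libraries), and 5 of 8 listed genes, all receptor chains, were tested. With OI, 1 rose and 1 fell in WT cells (40% called, against 43.9% of all genes). In Acod1-/- cells 1 rose and 2 fell (60% called, against 34.6%). After PM, 4 rose and 0 fell in each genotype (80% called, against 24.8% of all genes in WT and 23.9% in Acod1-/- cells). Csf2rb, the shared beta chain, and Csf2rb2, the IL-3-specific one, rose after PM by 1.30 and 0.72 in WT and 1.54 and 1.03 in Acod1-/- cells on the log2 scale. OI lowered Csf3r, the G-CSF receptor of granulocytes and monocytes, by -1.18 in WT (adjusted p = 5.29e-06) and -1.02 in Acod1-/- cells (adjusted p = 1.44e-05), and raised Csf2ra by 0.23 and 0.28.

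Factors related to the 4 transcription factors above moved in both directions. Of 15 other macrophage factors tested, 7 rose and 4 fell with OI in WT cells and 4 rose and 4 fell in Acod1-/- cells (73.3% and 53.3% called, against 43.9% and 34.6% of all genes). Egr2 rose by 1.44 and 1.39 and Bhlhe41 by 1.01 and 1.06 on the log2 scale, while Nr1h3, which encodes the oxysterol receptor LXRα, fell by -1.20 and -1.75. PM raised Spic, a factor of iron-recycling macrophages, by 1.78 and 1.90 and lowered Mef2c by -1.23 and -1.26 and Egr1 by -1.19 and -1.36. Of 8 tested relatives in the C/EBP and MAF families, 6 rose and 1 fell with OI in WT cells and 4 rose and 1 fell in Acod1-/- cells (87.5% and 62.5% called, against 43.9% and 34.6% of all genes, with a median log2 change of 0.54 and 0.43). The small MAF gene Maff rose by 1.20 and 0.75. Mafg, another small MAF, rose by 0.78 and 0.75. Ddit3, which encodes the stress factor CHOP, rose by 1.30 in WT cells, and its value in Acod1-/- cells was 0.49 (adjusted p = 0.0795).

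Surface relatives of F4/80 and CD11b split as well. Of 8 tested, 3 rose and 3 fell with OI in WT cells and 1 rose and 3 fell in Acod1-/- cells (75% and 50% called, against 43.9% and 34.6% of all genes). Adgre5, which encodes CD97 of the same receptor family, fell by -1.31 and -1.20 on the log2 scale (adjusted p = 1.02e-06 and 2.14e-06). Itgb2, the beta chain that pairs with CD11b, rose by 0.45 and 0.43 (adjusted p = 4.11e-05 and 6.65e-05). Itgad, 1 of the 3 called higher in WT cells, had a log2 change of 1.23 there and 0.34 in Acod1-/- cells, not called. It lay near the floor, with means of 0.617 CPM in WT PM and 1.44 in WT OI+PM, and 0.275 and 0.348 in Acod1-/- cells. Only WT vehicle had a mean above 1.5 CPM (2.04), so its rise is not counted as a result. Between genotypes Adgre5 changed the opposite way to Adgre1 and Adgre4, being lower in Acod1-/- cells by -0.57 with vehicle (adjusted p = 0.00688), -0.56 with PM and -0.46 with OI+PM.

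Of 25 other macrophage surface and core genes, all tested, 3 rose and 15 fell with OI in WT cells (72% called, against 43.9% of all genes; median log2 change -0.84) and 14 fell in Acod1-/- cells (56% called, against 34.6%; median -0.62). The deepest falls were in Marco, a scavenger receptor (-5.24 in WT and -4.57 in Acod1-/- cells), and Cx3cr1, the fractalkine receptor (-4.73 and -4.92). Trem2 and Lgals3 rose in WT cells by 0.54 and 0.36, and their values in Acod1-/- cells were 0.23 and 0.25, not called. The WT libraries of these genes varied widely. Trem2 ran from 848 to 1101 CPM with PM and from 1178 to 1660 with OI+PM. Lgals3 ran from 6327 to 7569 and from 7659 to 10150. The edgeR interaction called neither gene, so no difference between the genotypes is claimed. After PM, 6 rose and 6 fell in WT and 5 rose and 5 fell in Acod1-/- cells (48% and 40% called, against 24.8% and 23.9% of all genes). Marco rose by 5.69 and 5.06, Lyz2 by 0.96 and 1.10, while Mrc1, the mannose receptor, fell by -0.72 and -1.01 and Selenop by -0.91 and -0.92.

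**Figure D4:**
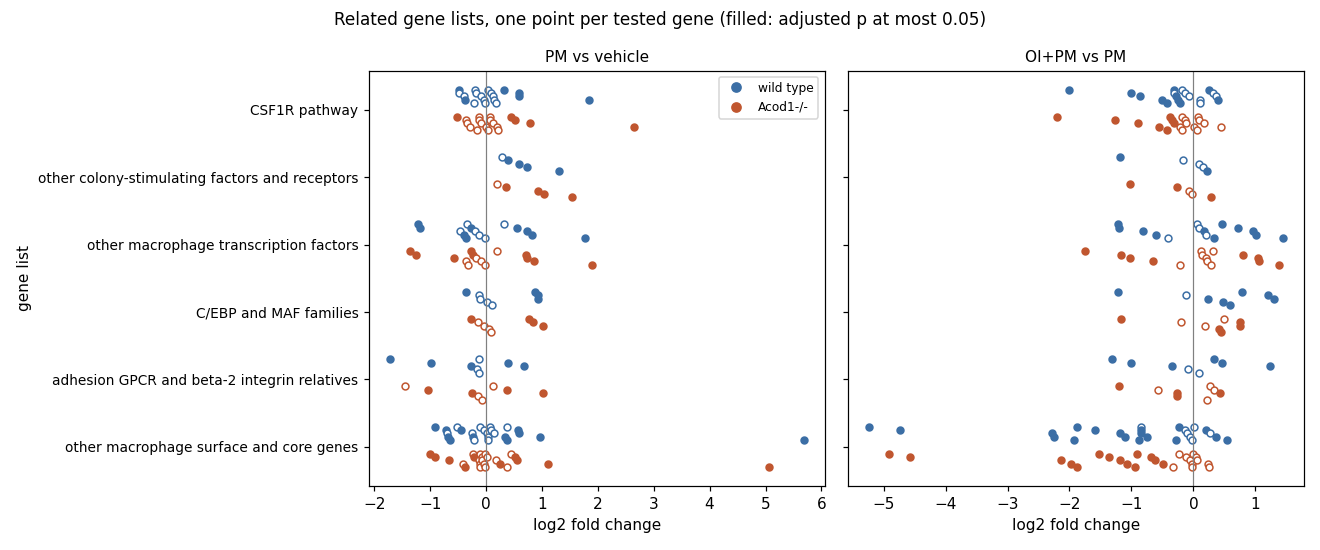
Log2 fold change (x axis) of each tested gene of the 6 related lists for PM against vehicle and OI+PM against PM, in WT (blue) and Acod1-/- (orange) cells. Filled points have an adjusted p of 0.05 or less. After OI the list of surface and core genes lies mostly left of 0 (median -0.84 in WT and -0.62 in Acod1-/- cells) and the C/EBP and MAF families mostly right (0.54 and 0.43).

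Markers of other cells moved with treatment, and their part in the results above was not tested. With OI against PM, 21.3% of all genes were called higher and 22.6% lower in WT cells, and 13.9% and 20.6% in Acod1-/- cells. The summed level of the 8 macrophage markers, which include Adgre1, Csf1r and Itgam, was 23190 to 26790 CPM in WT PM and 14430 to 16640 in WT OI+PM. It was 24520 to 27340 and 15000 to 15390 in the Acod1-/- groups. Of the 8, 6 were called lower in each genotype, among them Adgre1 and Csf1r, whose falls are given above. Lyz2 made most of the fall of the sum (mean 19460 and 10830 in the WT groups, 19620 and 10470 in the Acod1-/- groups). Cd68 went the other way in WT cells (1543 and 1784), the 1 marker called higher. The summed level of 8 neutrophil and precursor markers was 12.2 to 18.3 CPM in WT PM and 29.4 to 61.0 in WT OI+PM, and 17.3 to 18.5 and 33.3 to 33.9 in the Acod1-/- groups. The rise was carried by S100a8 (mean 12.6 and 44.6 in the WT groups), while S100a9 was lower (1.71 and 0.446 in WT, 3.27 and 1.04 in Acod1-/- cells), as was Ltf (0.717 and 0.0319 in WT). Of the 2 markers that passed the filter 1 was called higher and 1 lower in each genotype, and Ly6g, Mpo and Elane were at most 0.1096 CPM on average in every group. The lower one, S100a9, had a mean above 1.5 CPM in the PM groups alone. The filter so favoured its call, which is not counted as a result. The sum of 6 osteoclast markers was 137 to 159 in WT PM and 66.5 to 77.3 in WT OI+PM, and 221 to 230.6 and 94.0 to 98.8 in Acod1-/- cells, with Acp5 the most abundant and Calcr at 0. The sum of 4 monocyte markers was 7.21 to 8.66 in WT PM and 1.69 to 2.55 in WT OI+PM, and 5.72 to 5.79 and 3.20 to 3.43 in the Acod1-/- groups. Of it Ccr2 had a mean of 5.51 in WT PM and 0.728 in WT OI+PM, and Ly6c2 was near 0. The other sums were low in all 12 libraries: 0.862 to 4.04 CPM for 5 B cell markers (mostly Cd79b), 0.331 to 1.33 for 5 T cell markers (mostly Cd4), 0.271 to 2.88 for 5 fibroblast markers, 0.338 to 0.955 for 6 dendritic cell markers, 0.0616 to 0.711 for 3 NK cell markers, 0 to 0.0308 for 4 mast cell markers and 0.0301 to 0.338 for 5 erythroid markers.

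By the mean log2 CPM of the 6 groups, Csf1r and Spi1 ran together (Pearson r = 0.979) and Maf and Cebpa ran against each other (-0.921), as a description over 6 points that share libraries, with no test. Maf and Adgre4 had r = 0.875, and Cebpb and Itgam 0.878. Among tested genes with an average of at least 5 CPM, the 3 most like Maf were Paics, Stx7 and Pygb (0.9999, 0.9997 and 0.9994), and those most like Cebpa were Dmxl2, Med17 and Atp5s (0.999, 0.998 and 0.997). Csf1r was nearest to Tapbp, Nfkb2 and Icam1 (0.997, 0.995 and 0.993), and Spi1 to Relb, Psmb8 and Gm15832 (0.996, 0.992 and 0.991). Adgre4 was nearest to Rnf213, Ifi203 and Lacc1 (0.998, 0.997 and 0.996), and Adgre1 to Cd59a, Ssbp4 and Ifngr1 (0.992, 0.990 and 0.987). Cebpb was nearest to Atf6b, M6pr and Slc29a1 (0.999, 0.998 and 0.998 over 6 groups) and Itgam to Hsp90b1 and Ezr (0.995 and 0.993). Csf1 had no gene above 0.981, the value for Tamm41, followed by Cndp2 (0.977) and Plbd2 (0.969).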

How the data were processed

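RNA of mouse bone marrow-derived macrophages was sequenced in 12 libraries, and 1 table of raw counts per library was deposited by the authors, with 48795 Ensembl genes in each. Per the submitters' processing notes, FastQC 0.11.5, STAR 2.5.3a, Picard 2.9.0, featureCounts and DESeq2 were used with build GRCm38; strand settings and annotation release are not given in the sources used here. Symbols and exon lengths were matched to 48349 of the genes. Groups were taken from the labels, with 2 libraries in each of 6.

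Genes with a CPM above 1.5 in at least 2 libraries (11228) were tested in R 4.3.3 with edgeR 4.0.16 (limma 3.58.1), using TMM scaling, 6 group means and quasi-likelihood F tests. P-values were adjusted over all genes tested by the method of Benjamini and Hochberg and called at 0.05. SE was derived from the log2 change and its F statistic. Normalised CPM used the TMM-scaled library size, and RPKM divided it by the summed exon length. Intervals at 95% on Adgre4 count ratios were exact binomial and cover counting error only. The fit was tested on simulated data with known changes. All simulated libraries were given the same trend of spread. The test therefore does not cover the unequal replicate spread of these groups or its link to exonic length.

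All 9 genes were tested in every comparison, with Acod1 as the targeted gene; those between genotypes that were not called are given by range or in part. Of each related list other than the cell type markers the counts called with OI are given, and for some lists those after PM. By name, up to 2 called genes with the largest rise and 2 with the largest fall are given. For each of the 9 genes the 3 tested genes with the nearest pattern are named, among those with a mean of at least 5 CPM. The lists are the CSF1R pathway, other colony-stimulating factors and receptors, other macrophage transcription factors, C/EBP and MAF families, adhesion receptor and integrin relatives, other macrophage surface and core genes, and cell type markers. A few genes that these rules select are not reported here. The genes and lists were chosen with earlier results of these data known.

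Alternatives were DESeq2 1.42.0, RLE scaling, total count scaling, 2 other filters (a total of 10 counts, or a CPM above 1.5 in all libraries), the compared groups fitted alone, the replicate number as a block, a correction for exonic length, both together, and each library left out. Total count scaling, an exchanged block and the test of the OI+PM effect over vehicle between genotypes were added after the data were seen.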

Additional observations from a re-analysis of the deposited data

Results flagged for a closer look

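Csf1 moved in opposite directions in the 2 genotypes when OI+PM was compared with vehicle. Its log2 change was 0.54 in WT cells and -0.61 in Acod1-/- cells, and every OI+PM library lay above every vehicle library in WT and below every one in Acod1-/- cells. The test of the difference, added after the data were seen, gave a log2 difference of -1.15 (SE 0.16, edgeR unadjusted p = 3.12e-05, adjusted p = 0.0628), which missed the threshold. Over its alternatives the adjusted p ran from 0.0103, without WT OI+PM replicate 1, to 0.576. The test called 3 genes of 11228 in edgeR, 51 in DESeq2, 24 with the length correction and 27 with the length correction and replicate block. Csf1 rests on 97 to 264 counts a library.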

How the results depend on the processing

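Of 265 recomputed values, 248 were taken as unchanged. All but 1 were counts of the 9 genes called, unchanged if within 1.5 times or if 0 stayed 0. The remaining value was the ratio of Csf1r to Csf1 in WT vehicle (253, and 245 per longest transcript), unchanged within its SD. Differences between genotypes in a treatment effect called 0 of the 9 in the main fit, and each 0 that stayed 0 is among the 248. In WT cells OI+PM against PM called 4 of the 9 with the compared groups fitted alone (1939 of all genes, against 4926). Between genotypes with vehicle, 1 was called with the filter of CPM above 1.5 in all libraries, which removed Adgre4, 5 with the compared groups alone (2316 of all genes, against 205) and 0 to 3 with 1 library left out. With PM the same filter left 1, and leaving out 1 library 1 to 3. With OI+PM 0 were called with the compared groups alone (2 of all genes, against 782) and 1 to 5 with 1 library left out. The OI interaction called 0 to 1 (Maf, without WT OI+PM replicate 1). The added test of OI+PM over vehicle between genotypes called 1 (Csf1) with the length correction, 1 with the length correction and replicate block together, and 0 to 2 with 1 library left out. For Spi1, OI+PM against PM in WT cells ran from -0.2556 to 0.0189 with 1 library left out, and the log2 fold change of Cebpa, PM vs vehicle, WT, was -0.0105 with total count scaling, -0.0570 with the length correction and -0.0572 with the length correction and replicate block. Of 2376 recomputed counts of related-list genes called higher or lower, 387 moved and 1989 did not, by the same rule of 1.5 times. The counts given for those lists so depend in part on the processing. The cause of these changes was not tested. The numbers 1 and 2 were not shown to pair libraries: the deviations of same-numbered libraries correlated at 0.227, 0.237 and 0.733 between the 3 pairs of WT groups, at -0.06, -0.036 and -0.095 between those of Acod1-/- groups, and from -0.412 to 0.251 across genotypes. With the replicate block OI+PM against PM called 5128 genes in WT and 4001 in Acod1-/- cells (4926 and 3881 without it), and no call of the 9 genes changed in any comparison. Exchanging the 2 numbers within Acod1-/- PM made these 5662 and 4418. With 2 libraries a group, intervals are wide, and a library left out leaves 1 that is assumed to vary like the other groups.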
